A study of Mus musculus with 8 samples.

Results

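The genes described here are 8 paired-class homeobox genes: Otx1, Otx2, Otp, Pitx1, Pitx3, Phox2a, Gsc and Shox2. They were taken by name from 21887 protein-coding genes, and for each of them every H2AK119ub peak touching the RefSeq gene span or the 20 kb on either side was collected. That gave 10 of the 4621 peaks of the control list and 8 of the 2541 peaks of the Eed cKO list. Both lists come from chromatin immunoprecipitation and sequencing (ChIP-seq) of basal epidermal progenitors from the back skin of newborn mice at postnatal day 0. The cells were sorted by the surface proteins EpCAM, Sca1 and α6-integrin. The series comprises 8 libraries: 2 H2AK119ub libraries and 1 input from control mice, 2 H2AK119ub libraries and 1 input from Eed cKO mice (genotype label Eed-/-), and 1 H2AK119ub library and 1 input from Ring1a/b 2KO mice (Ring1a-/- Ring1b-/-), the last pair not analysed here. The driver of the Eed deletion, the alleles carried by the controls and the sex of the animals are not stated in the labels.

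H2AK119ub is ubiquitin on histone H2A, placed by Polycomb repressive complex 1 (PRC1) and found over developmental genes that are kept silent. Eed belongs to the core of PRC2, the Polycomb complex that methylates histone H3 and helps to recruit some forms of PRC1, while other forms reach CpG-rich DNA without it. The 8 genes encode transcription factors of other lineages than skin. Otx1 and Otx2 pattern the forebrain, midbrain, eye and ear. Gsc acts in the gastrula organizer and in the face, Pitx1 in the hindlimb and pituitary, and Pitx3 in the lens and in dopaminergic neurons. Otp is a factor of hypothalamic neurons, Phox2a of noradrenergic and autonomic neurons, and Shox2 of the sinoatrial node, limb and palate. Their homeodomains fall into a lysine type (Otx1, Otx2, Pitx1, Pitx3, Gsc), which prefers the site TAATCC, and a glutamine type (Otp, Phox2a, Shox2), named for a residue of the recognition helix.

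The deposited peaks have a position and no score, and each genotype has 1 list, so widths and positions are the measured values and carry no replicate error. Read depth is unknown, and less mark, fewer reads and a different call threshold cannot be told apart. Differences between the lists below are descriptions, with no test. Peak positions say nothing of expression, so the sort could not be checked from RNA. None of 7 basal epidermal marker genes, among them Krt5, Krt14 and Trp63, had a peak over its span in either list. Of 9 leukocyte, melanocyte and fibroblast marker genes only Pdgfra did, in control. Even with 20 kb flanks, 21.2% of all protein-coding genes had a control peak and 14.3% an Eed cKO peak. The marker counts therefore do not check the sort either.

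The sequences just upstream of the outermost annotated start are shown for 5 of the genes, because the genes differ in whether this place was still under a peak in Eed cKO. At Otx2 it was, at Otp, Pitx3 and Gsc it was not although an Eed cKO peak lay elsewhere in the gene, and at Phox2a no Eed cKO peak was called. Each is the 250 bases before the start, from RefSeq on GRCm38.p6 (the assembly also called mm10), 5′ to 3′ on the strand of the gene, with every CG in capitals. The windows are chr14:48667645-48667894 on the minus strand for Otx2, chr13:94875386-94875635 on the plus strand for Otp, chr19:46148326-46148575 on the minus strand for Pitx3, chr12:104473237-104473486 on the minus strand for Gsc and chr7:101818063-101818312 on the plus strand for Phox2a.
Otx2: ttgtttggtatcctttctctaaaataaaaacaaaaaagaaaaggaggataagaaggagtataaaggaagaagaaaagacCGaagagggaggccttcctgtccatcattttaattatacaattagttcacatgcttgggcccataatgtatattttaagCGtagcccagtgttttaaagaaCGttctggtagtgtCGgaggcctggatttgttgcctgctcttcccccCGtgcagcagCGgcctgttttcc
Otp: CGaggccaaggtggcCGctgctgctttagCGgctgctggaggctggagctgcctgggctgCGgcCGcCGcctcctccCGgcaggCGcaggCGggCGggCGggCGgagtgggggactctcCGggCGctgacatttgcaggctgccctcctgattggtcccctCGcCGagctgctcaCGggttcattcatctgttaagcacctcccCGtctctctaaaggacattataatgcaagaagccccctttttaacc
Pitx3: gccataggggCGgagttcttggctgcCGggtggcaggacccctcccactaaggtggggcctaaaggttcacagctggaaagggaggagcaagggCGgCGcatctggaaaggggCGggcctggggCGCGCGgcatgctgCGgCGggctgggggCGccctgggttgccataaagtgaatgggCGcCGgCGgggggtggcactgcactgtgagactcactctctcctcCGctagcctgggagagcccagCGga
Gsc: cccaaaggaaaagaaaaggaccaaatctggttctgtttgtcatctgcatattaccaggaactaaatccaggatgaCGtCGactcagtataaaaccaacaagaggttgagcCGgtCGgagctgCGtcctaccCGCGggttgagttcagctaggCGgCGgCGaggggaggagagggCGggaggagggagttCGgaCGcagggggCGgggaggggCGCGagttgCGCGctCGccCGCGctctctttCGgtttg
Phox2a: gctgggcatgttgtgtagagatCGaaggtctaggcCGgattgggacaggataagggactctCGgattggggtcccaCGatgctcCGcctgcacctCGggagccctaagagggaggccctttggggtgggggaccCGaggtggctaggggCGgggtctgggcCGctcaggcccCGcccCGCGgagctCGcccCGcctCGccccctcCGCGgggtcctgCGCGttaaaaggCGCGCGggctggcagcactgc

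In control cells all 8 genes carried H2AK119ub, and in every case a single peak ran over the whole gene and beyond both of its ends. A control peak lay within the window of 8 of 8 genes (95% Wilson interval 67.6 to 100%), against 21.2% of all protein-coding genes. Of all protein-coding genes, 1.60% lay wholly inside 1 control peak, as did 8 of 8 here. The 8 genes were chosen with results of these data known, so these counts describe them and support nothing further. In Eed cKO, 7 of 8 genes had a peak (52.9 to 97.8%), against 14.3% of all protein-coding genes. Peaks of both lists were found at 7 of 8 genes, against 11.7% of all. Of the genes with a control peak in the window, 55.1% also had an Eed cKO peak there.

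The control peaks over these genes were wide. Their widths were 29.8 kb at Otx1, 30.8 kb at Otx2, 31.1 kb at Otp, 22.6 kb at Pitx1, 23.9 kb at Pitx3, 21.2 kb at Shox2, 14.5 kb at Gsc and 8.87 kb at Phox2a. The median control peak was 4.33 kb wide, so Phox2a, the narrowest of the 8, was still above it. Peaks of at least 20 kb made up 4.48% of the control list (207 peaks), and 6 of them lay over Otx1, Otx2, Otp, Pitx1, Pitx3 and Shox2. A control peak of that width lay in the window of 1.43% of all protein-coding genes. Shox2 at 21.2 kb was just inside this limit and Gsc at 14.5 kb outside it. The 2 remaining control peaks were narrow satellites, 3.56 kb wide at 7938 bp from the Otx2 span and 3.41 kb wide at 8111 bp from the Gsc span. Both lay below the lower-coordinate end, which is the far end of these minus-strand genes, and no Eed cKO peak touched either. Eed cKO peaks thus overlapped 7 of the 10 control peaks at these genes, against 37.9% of the whole control list.

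Eed cKO peaks at these genes were narrower than the control peaks that held them and added no new territory. Each of the 8 Eed cKO peaks lay wholly inside 1 control peak, whereas 21.7% of all Eed cKO peaks did so. The control peaks here had a median width of 21.9 kb, against 4.33 kb over the list, and like widths were not compared. All 8 Eed cKO peaks overlapped a control peak, against 70.1% of all Eed cKO peaks. Their widths ran from 3.06 kb at Gsc to 19.9 kb at Pitx1, with a median of 9.16 kb, against 5.17 kb over the whole Eed cKO list. No Eed cKO peak reached 20 kb at these genes, with Pitx1 at 19.9 kb just short of it. A peak of that width lay in the window of 0.489% of protein-coding genes, so its absence does not set these genes apart. Summed over the 8 windows, 189.7 kb lay under control peaks and 77.0 kb under Eed cKO peaks, all of it shared, so 40.6% of the control cover was also covered in Eed cKO. Over the whole control list 36.8% of the covered sequence was. The share at the 8 genes depends on the flanks, and in the gene spans alone it was 65.5%.

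**Figure D1:**
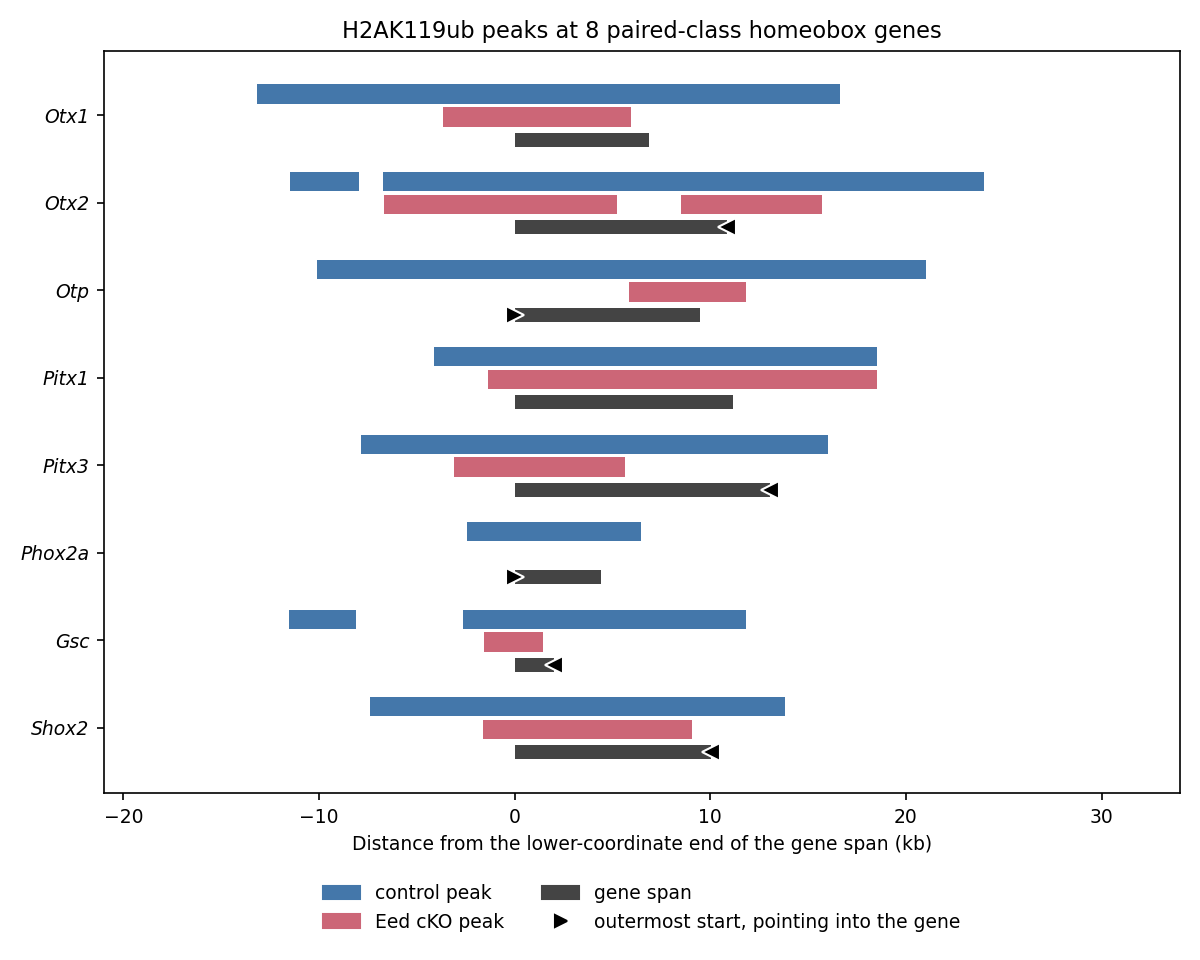
Each row is 1 gene; bars show control peaks (blue), Eed cKO peaks (red) and the gene span (grey) by distance in kb from the lower-coordinate end of the span, and arrowheads mark the outermost start where the promoter table gives a strand. Every red bar sits inside a blue one, Pitx1 is nearly filled, Phox2a has no red bar, and at Otp, Pitx3, Gsc and Shox2 the red bar ends short of the start.

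The share of control cover that was also covered in Eed cKO ranged from 0% to 87.8% among the 8 genes. In descending order it was 87.8% at Pitx1, 55.7% at Otx2, 50.3% at Shox2, 36.4% at Pitx3, 32.3% at Otx1, 19.2% at Otp, 17.1% at Gsc and 0% at Phox2a. Pitx1 stands well above the next gene. With no replicates, neither this gap nor the order of close neighbours such as Otp and Gsc can be told from error. The order did not follow control width, since Otp had the widest single peak and a share below that of 5 narrower ones. Over the 7 genes with both peaks the median share was 36.4%. Over all 2552 genes with peaks of both lists in the window it was 74.1%, with quartiles of 43.3% and 97.4%. The wide peaks of the control list are a closer setting. Over all 207 of at least 20 kb the median share covered, per whole peak, was 44.2%, with quartiles of 20.5% and 69.8%. Of the 6 such peaks here, those at Pitx1 (87.8%), Otx2 (62.1%) and Shox2 (50.3%) lay above that median. Those at Pitx3 (36.4%), Otx1 (32.3%) and Otp (19.2%) lay below it. An Eed cKO peak touched 81.6% of these 207 peaks, and 6 of the 6 at the listed genes.

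**Figure D2:**
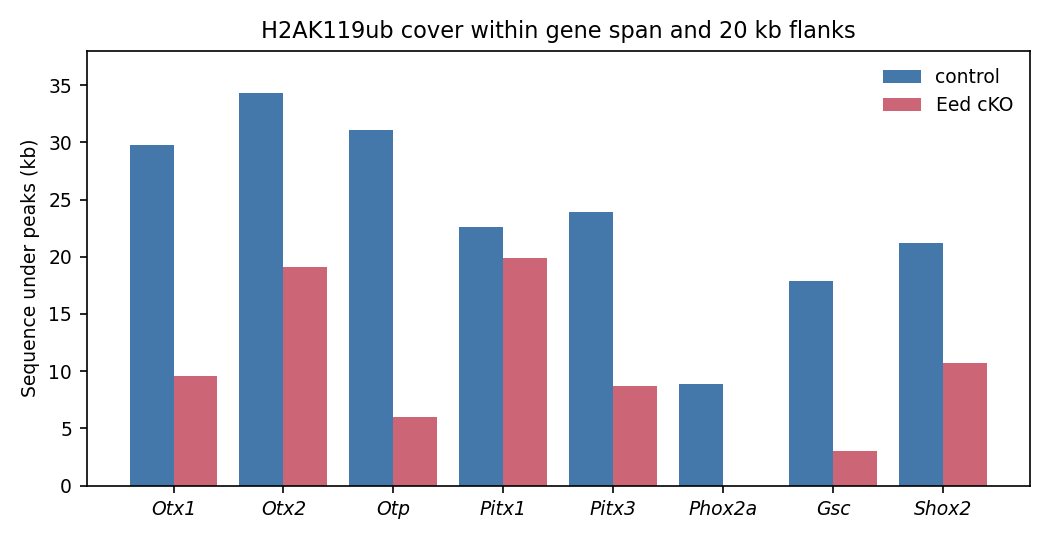
Bars give the sequence under peaks in kb within each gene span and 20 kb on either side, for the 1 control list (blue) and the 1 Eed cKO list (red), so there are no error bars. Control cover runs from 8.87 kb at Phox2a to 34.3 kb at Otx2, and the 2 bars are closest at Pitx1 (22.6 and 19.9 kb).

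Within the 20 kb windows the Otx paralogs had similar control cover and different Eed cKO cover. Otx1 lies at chr11:21994764-22001651 and Otx2 at chr14:48656781-48667644. Control cover was 29.8 kb at Otx1, more than at 96.2% of the 4635 genes with a control peak in their window, and 34.3 kb at Otx2, more than at 97.6% of them. Eed cKO cover was 9.62 kb at Otx1 and 19.1 kb at Otx2, a ratio of 1.99, against 1.15 in control. In the gene spans alone the contrast turned round, with a ratio of Otx2 to Otx1 of 1.58 in control and 1.27 in Eed cKO, and a smaller share of the Otx2 span (69.8%) than of the Otx1 span (86.7%) was covered in Eed cKO. At Otx1 the Eed cKO peak had 5.97 kb in the gene span and 3.65 kb below it, and the control peak extended 9.52 kb further on the lower side and 10.6 kb on the upper side. The control peak also covered 5.55 kb of the neighbour Ehbp1, which the Eed cKO peak did not reach. At Otx2 the domain was split into an 11.9 kb and a 7.23 kb Eed cKO peak, with 3.28 kb between them inside the gene. The lower edge of the first lay 76 bp from that of the control peak. On the upper side 8.29 kb of control peak had no Eed cKO cover, and this stretch lies in the non-coding RNA gene Otx2os1, of which 11.5 kb was under the control peak and 3.21 kb under the Eed cKO peak.

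The Pitx paralogs, too, had similar control cover and unlike Eed cKO cover. Pitx1 (chr13:55825044-55836190) and Pitx3 (chr19:46135281-46148325) had control cover of 22.6 and 23.9 kb. Their Eed cKO cover was 19.9 and 8.70 kb, a ratio of 2.28, where the control ratio was 0.947. The Pitx1 peak covered 100% of the gene in Eed cKO, its upper edge lay 2 bp from that of the control peak, and only 2.75 kb at the lower edge was not covered. Of the overlapped control peaks at the listed genes, 2 of 14 edges, at Otx2 and Pitx1, had an Eed cKO edge within 100 bp, against 14.7% over the whole list. That lower stretch lies over Catsper3, a sperm calcium channel gene, which had 3.11 kb under the control peak and 0.36 kb under the Eed cKO peak. At 19.9 kb the Pitx1 peak ranked 65 by width in the Eed cKO list, while the control peak ranked 173 in its own list. At Pitx3 the Eed cKO peak covered 43.1% of the span, at the far end of the gene together with 3.50 kb of Elovl3, a fatty acid elongase gene whose end overlaps that of Pitx3. The 10.4 kb of control peak towards and across the Pitx3 start had no Eed cKO peak.

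Phox2a (chr7:101818313-101822726) had the narrowest control peak and no Eed cKO peak. Its 8.87 kb control peak extended 2.42 kb upstream and 2.03 kb past the far end, over 2.13 kb of the neighbour Inppl1. The nearest Eed cKO peak lay 498 kb away at Stard10. In the other 2 glutamine-type genes, Otp and Shox2, 19.2% and 50.3% of the control cover was covered in Eed cKO, and in the 5 lysine-type genes 17.1% to 87.8% was, so the ranges of the homeodomain types overlapped.

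Otp (chr13:94875636-94885125) stands alone, with no other RefSeq gene in its window. Its 31.1 kb control peak reached 10.1 kb upstream of the start and 11.5 kb past the far end. The 5.99 kb Eed cKO peak covered 38.4% of the span and 2.34 kb past the far end, and its nearer edge lay 5844 bp from the start. Gsc (chr12:104471209-104473236) had a 3.06 kb Eed cKO peak inside a 14.5 kb control peak, with 10.4 kb of the control peak on the upstream side not covered. The non-coding gene Gm10000, which begins 293 bp from the Gsc span, had 9.51 kb under the control peak and no Eed cKO cover. Its paralog Gsc2 had less control cover (9.96 kb) and more Eed cKO cover (6.68 kb) than Gsc (17.9 and 3.06 kb). At Shox2 (chr3:66971723-66981771) the Eed cKO peak of 10.7 kb covered 90.0% of the span and reached 1.63 kb below it, and 5.77 and 4.79 kb of control peak on either side were not covered. The 4.20 kb of control peak over Rsrc1, which overlaps the Shox2 start, had no Eed cKO cover.

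In the 7 genes with an Eed cKO peak, a larger share of the gene span than of the surrounding control peak was covered. The spans were covered to between 38.4% at Otp and 100% at Pitx1, with a median of 72.6%. The rest of the same control peak was covered to between 10.8% at Otp and 76.0% at Pitx1, with a median of 15.9%. The gap was widest at Shox2, with 90.0% and 14.6%, and narrowest at Otx2, with 69.8% and 57.9%. Of 264 protein-coding genes wholly inside 1 control peak that met an Eed cKO peak, 73.5% had the same direction, with medians of 100% for spans and 62.8% for the rest. Peaks of like width were not compared, and a gene with span and rest equally covered does not count towards this direction.

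**Figure D3:**
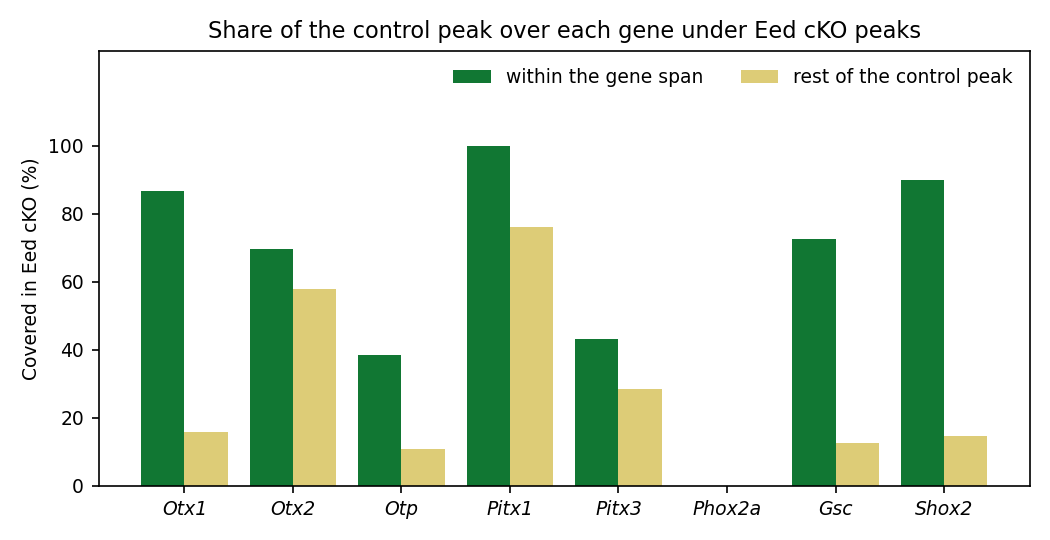
Bars give the percent of bases covered by Eed cKO peaks within the gene span (green) and in the rest of the control peak over that gene (yellow), 1 list per genotype. The green bar is the taller one at the 7 genes with an Eed cKO peak, and Phox2a is at 0% for both.

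At the genes with a known strand, the Eed cKO peaks sat at the far end more than at the start. The strand is known for 6 of the genes, and a control peak covered the outermost start of 6 of 6, against 6.33% of the 17492 protein-coding genes with a strand. An Eed cKO peak covered the start of 1 of these 6, Otx2, while 43.2% of all 1108 genes with a start under a control peak had an Eed cKO peak there. The far end was under an Eed cKO peak at 5 of the 6, all but Phox2a. Pitx1 and Otx1 have no strand here and are left out of these counts. At Pitx1 an Eed cKO peak covered both ends of the span, so its start was covered on either strand. At Otx1 it covered the lower-coordinate end alone. Otp, Pitx3, Gsc and Shox2 had an Eed cKO peak over the far end and not the start, at distances from the start of 5844, 7427, 556 and 1002 bp respectively. The setting is the 235 genes with control peaks at both ends and an Eed cKO peak in the span, 5 of them listed here. An Eed cKO peak covered the start of 79.6% of the 235 and of 1 of the 5, and the far end of 75.7% and of 5 of the 5. The far end alone was covered in 17.0% of the 235 and in 4 of the 5, the start alone in 20.9% and in 0 of the 5, and both ends in 58.7% and in 1 of the 5. This comparison was chosen after the values were seen, and genes of like length and peaks of like width were not compared. With an Eed cKO peak anywhere within 2 kb of the start, 3 of the 6 counted (Otx2, Gsc and Shox2), which left Otp and Pitx3 with the far end alone, against 6.81% of the 235.

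Over the 6 outermost starts, CG counts ran in reverse order to the share of control cover also covered in Eed cKO. That share fell from 55.7% at Otx2 to 17.1% at Gsc and 0% at Phox2a. The order rests on 6 genes and on their outermost starts, and was not tested. Otx1 and Pitx1 had no start window, and Pitx1 had the highest share of the listed genes (87.8%). The Otx2 start, under peaks of both lists, had 6 CGs in 250 bases, the fewest of the 6 outermost starts. Gsc and Phox2a, whose starts were under a control peak alone, had 22 each, Otp 18, Pitx3 16 and Shox2 11. Over 21263 start windows of protein-coding genes the median was 10 CGs. It was 16 in the 574 windows wholly inside peaks of both lists and 14 in the 772 that were wholly inside a control peak but not wholly inside an Eed cKO peak. The higher median thus went with cover in both lists, unlike the low count at the Otx2 start. Otx2 has 3 further starts within the gene, with 8, 14 and 9 CGs. The first of these lay under the 7.23 kb Eed cKO peak, 84 of the 250 bases before the second did, and the last fell in the stretch between the 2 peaks. The lysine-type site TAATCC, searched on both strands, occurred in 1 of the 9 windows of these genes, at that second inner start of Otx2, and in 5.82% of all windows. These letters describe the windows and show no binding.

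Other paired-class homeobox genes gave a wider spread. Of 16 such genes, 13 had a control peak in the window and 8 had peaks of both lists. Prrx1, Prrx2, Alx1, Esx1 and Vsx1 had a control peak and no Eed cKO peak, as Phox2a did, and Crx, Hesx1 and Isx had none. Crx, the photoreceptor member of the Otx family, thus differed from Otx1 and Otx2 in both lists. Over the 16 genes the median control cover was 9.86 kb and the median Eed cKO cover 2.37 kb, against 23.3 and 9.16 kb over the 8. Summed over the 16, 48.1% of control cover was covered in Eed cKO. Likeness was measured as the distance over control, Eed cKO and shared cover in kb, which takes no account of where the cover lies. By this distance Phox2a was nearest to Prrx2 (0.439 kb), Gsc to Esx1 (4.33 kb) and Pitx1 to Alx4 (7.48 kb). Alx4 had more Eed cKO (17.9 kb) than control cover (16.7 kb). Control peaks covered 100% of the Phox2a and Pitx1 spans, but 6.37% of the Prrx2 span and 27.5% of the Alx4 span. The Gsc and Esx1 spans were both covered to 100%. The other members had no gene as close among the 16: the nearest was Alx4 for Shox2 (9.94 kb), Uncx for Otx2 (10.5 kb) and Alx1 for Pitx3, Otp and Otx1 (12.7, 13.2 and 16.2 kb).

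**Figure D4:**
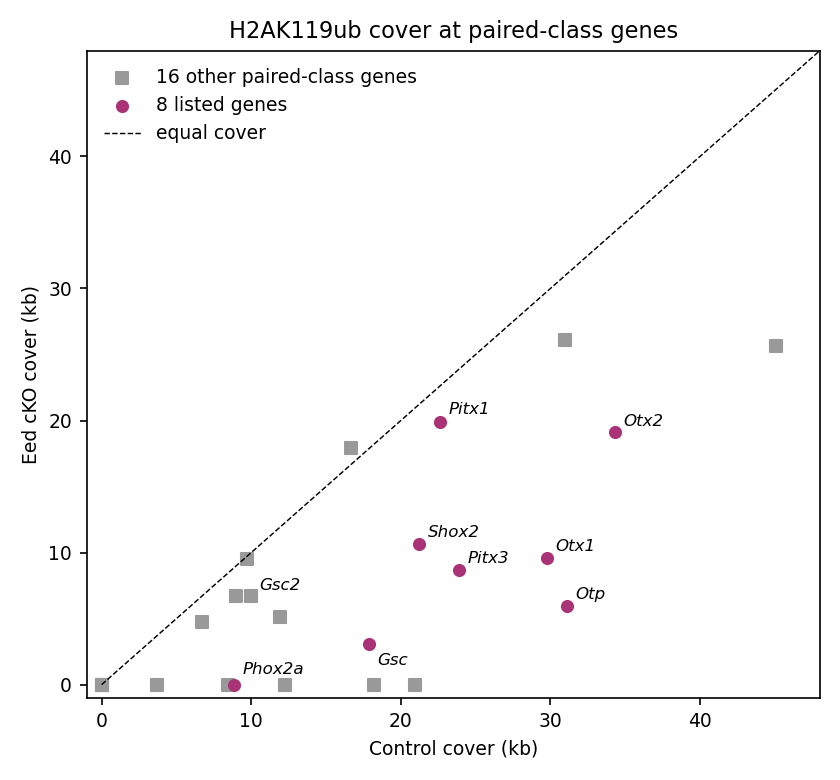
Each point is 1 gene, with control cover on the x axis and Eed cKO cover on the y axis, both in kb within the span and 20 kb flanks; circles are the 8 listed genes, squares 16 other paired-class genes and the dashed line equal cover. All circles lie below the line, from Phox2a at 8.87 and 0 kb to Otx2 at 34.3 and 19.1 kb.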

How the data were processed

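H2AK119ub ChIP-seq peak lists of control and Eed cKO epidermal progenitors, 1 list each, were used. Per the submitters' processing notes the authors used Bowtie2 2.3.3.1, SAMtools 1.9 and mm10. Per the file headers the deposited files hold chromosome, start and end of each peak. The peak caller, threshold, use of inputs and joining of the 2 libraries per genotype are not stated in the sources used here, and depth per sample is unknown. Splitting of a domain into several peaks depends on such settings.

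Starts were read as counted from 0, as in BED files, and are printed from 1. Peaks were intersected, at 1 bp or more, with spans of 21887 protein-coding RefSeq genes of GRCm38.p6 and 20 kb flanks. Cover is the bases under peaks inside that window, and all peaks reported for the 8 genes lay wholly inside it. The gene table has no exons or strand, so exonic and intronic parts were not separated. Strand came from the promoter table, which held 17492 of these genes and 6 of the 8. In 526 of 526 pairs of overlapping minus-strand windows the letters matched when read 5′ to 3′. The 95% Wilson intervals express counting error alone. The genes were listed by name and are no random sample, so the intervals are no test of enrichment. No test was made, since there are no replicates.

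The members and lists were chosen with earlier results of these data known. The named genes are the 8 members, coding genes touched by their peaks, the paralogs Crx and Gsc2, and the other paired-class gene nearest to each member. Some genes of the comparison list are not reported here. The non-coding genes, Stard10 and the other paired-class genes without an Eed cKO peak were named after their values were seen, and the 20 kb width limit and the comparisons of gene ends and of span with surroundings were set then too. Interval functions were tested on 200 simulated windows. Alternatives were other flanks, merged peaks, stricter lists and overlap rules. Tools were scipy 1.17.1, pandas 2.3.3 and numpy 2.4.6 under Python 3.11.15, with figures from matplotlib 3.10.9.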

Additional observations from a re-analysis of the deposited data

How the results depend on the processing

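Counts of genes with a peak stayed at 8 in control under 7 alternatives and at 7 in Eed cKO under 6 of them. With the 50% widest peaks of each list 6 genes had an Eed cKO peak, since the Gsc peak is narrow. The share of control cover also covered in Eed cKO was 40.6%, and it was 65.5% in the gene span alone, 53.7% with 5 kb flanks, 39.0% with 50 kb flanks and 42.1% with the control list trimmed to the widest peaks. The ratio of Eed cKO to control cover was 0.406 and 0.655 in the gene span alone. Pitx1 over Pitx3 in Eed cKO cover kept its direction under the 6 alternatives run for it. Otx2 over Otx1 was 1.15 in control and 1.99 in Eed cKO cover, and in the gene span alone 1.58 and 1.27, so the paralogs then differed more in control than in Eed cKO. Of the 10 control peaks, 7 were overlapped in Eed cKO, and 3 when 50% of the control peak had to be covered. Of the 6 genes with a strand, the start was under an Eed cKO peak at 1, and within 2 kb of one at 3. The 2 kb rule was an alternative chosen after seeing the data. Pitx1, not counted there for want of a strand, had both ends of its span under an Eed cKO peak. Of 96 cover values per gene, 19 moved by more than 1.5 times, 18 of them with shorter flanks. With 5 kb flanks the 4 that moved were control cover, at Otx1, Otx2, Otp and Gsc. No paired analysis was possible because each genotype has 1 joined peak list, and for the same reason no replicate could be left out. Depth behind the lists is unknown, so a stretch without a peak is not shown to lack the mark.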
